A study of Mus musculus with 6 samples.

Results

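The genes described here are the glutathione transferases of the mouse (Gst and Mgst genes) together with the main antioxidant enzymes: glutathione peroxidases (Gpx), peroxiredoxins (Prdx), thioredoxins and their reductases (Txn, Txnrd), superoxide dismutases (Sod), catalase (Cat), the enzymes that make and recycle glutathione (Gclc, Gclm, Gss, Gsr), Srxn1, Nqo1, and the regulators Nfe2l2 and Keap1. They were chosen by gene symbol, leaving out pseudogene symbols that end in -ps. The symbols matched 57 of the 55363 features in the tables. RNA of whole oviducts was sequenced in 6 libraries, 3 labelled Mettl3 f/f and 3 labelled Mettl3 d/d, from females that were 6 to 8 weeks old when mated and were killed on gestational day 3, the day of the vaginal plug being counted as day 1. By common notation f/f stands for alleles with loxP sites around the target and d/d for their deleted form, and Mettl3 encodes the catalytic subunit of the RNA N6-methyladenosine writer. The Cre driver, the deleted exons and the strain were not given in the sources used here, and nothing in the labels says whether each library came from a separate animal, so the p-values below measure only how these samples vary, which may be technical.

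Glutathione is a tripeptide thiol present at high concentration in most cells. Its synthesis starts with glutamate-cysteine ligase, made of a catalytic subunit (Gclc) and a modifier subunit (Gclm), and ends with glutathione synthetase (Gss). Glutathione transferases attach it to electrophilic compounds, glutathione peroxidases use it to reduce peroxides, and glutathione reductase (Gsr) regenerates it. Peroxiredoxins reduce peroxides with electrons that mostly come from thioredoxin, which thioredoxin reductases recharge with NADPH. Many of these genes are known targets of the transcription factor NRF2 (Nfe2l2), which KEAP1 (Keap1) marks for degradation until an electrophile or oxidant modifies KEAP1. The oviduct lumen holds the preimplantation embryo on this day of pregnancy, and oxidants and their scavengers in oviductal tissue and fluid have long been studied for that reason.

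Values are FPKM, sequenced fragments divided by transcript length and by the library's mapped fragments, and are therefore levels per length that can be set side by side between genes. The lowest steps of the values implied 16600000 to 17800000 fragments per library, and 21085 to 22211 features per library were above 0. Mettl3 itself had 11.8, 12.1 and 13.2 FPKM in f/f replicates 1, 2 and 3 and 19.8, 20.3 and 24.5 FPKM in d/d (limma adjusted p = 0.0145). It was thus not lower under the d/d label, and as a level per gene cannot show a missing exon, it did not check the genotype labels on which every direction below rests. All 8 markers of oviductal secretory epithelium were above 0 in the tables (summed level 5314 to 6360 FPKM in f/f and 5706 to 8091 FPKM in d/d). Of the secretory markers, 4 of 8 were called higher in d/d. Other cell type markers differed among the libraries as well. All 10 macrophage and myeloid markers were called higher in d/d, with a summed level of 414 to 523 FPKM in f/f and 1161 to 1546 FPKM in d/d. The smooth muscle sum was 1574 FPKM in f/f replicate 1 against 3888 and 3892 FPKM in f/f replicates 2 and 3 and 2157 to 3536 FPKM in d/d, and Hoxa10, known from the uterus and the part of the oviduct next to it, was at 3.48 FPKM in f/f replicate 1 and at 26.5 and 25.1 FPKM in the other f/f libraries. In d/d replicates 1, 2 and 3 Hoxa10 was at 4.24, 9.47 and 12.4 FPKM (limma adjusted p = 0.556). The multiciliated sum ran from 272 to 669 FPKM in f/f and from 88.5 to 403 FPKM in d/d, and the adipocyte sum was 68.8 FPKM in f/f replicate 1 and 0.292 to 13.7 FPKM elsewhere. An ovarian steroidogenic sum was at 37.5 FPKM in f/f replicate 3 and at 6.28 to 8.33 FPKM elsewhere. The mesothelial sum was 384 to 479.8 FPKM in f/f and 232 to 289 FPKM in d/d, although none of its 5 genes was called. In bulk tissue, fewer cells of a type and less RNA per cell cannot be told apart.

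The genes that passed the test were all lower in d/d among the glutathione transferases and all higher among the peroxidases and peroxiredoxins, and most members of both groups did not pass. Of the 22 Gst genes, 16 had a mean of at least 1 FPKM and were tested. Among these, 5 fell in d/d (Gstm7, Gstm2, Gstm1, Gstm5 and Gstk1) and 0 rose, with a median log2 change of -0.48. At an unadjusted limma p under 0.05, 9 were lower and 0 higher, against 14.2% and 15.4% of all features tested. Of the 16, Gstm6, which is among the 9, and Gsta2 had a d/d mean under 1 FPKM and were tested through their f/f levels. Of the 15 peroxidase and peroxiredoxin genes, 12 were tested, 4 rose (Gpx1, Gpx7, Prdx6 and Prdx1) and 0 fell, with a median log2 change of 0.21. At an unadjusted p under 0.05 these numbers were again 4 and 0. Gclc also rose and Nqo1 fell. Over all 47 tested genes, 5 rose and 6 fell, which is 23.4%. Of all 15438 features tested, 11.0% were called (6.04% higher and 4.97% lower), at a limma adjusted p under 0.05, and their median log2 change was -0.01. The values of the groups did not overlap in 21 of the 47 genes, against 35.6% of all features tested. A log2 change here is the d/d mean less the f/f mean of log2(FPKM + 1), and a fold is the ratio of group mean FPKM.

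**Figure D1:**
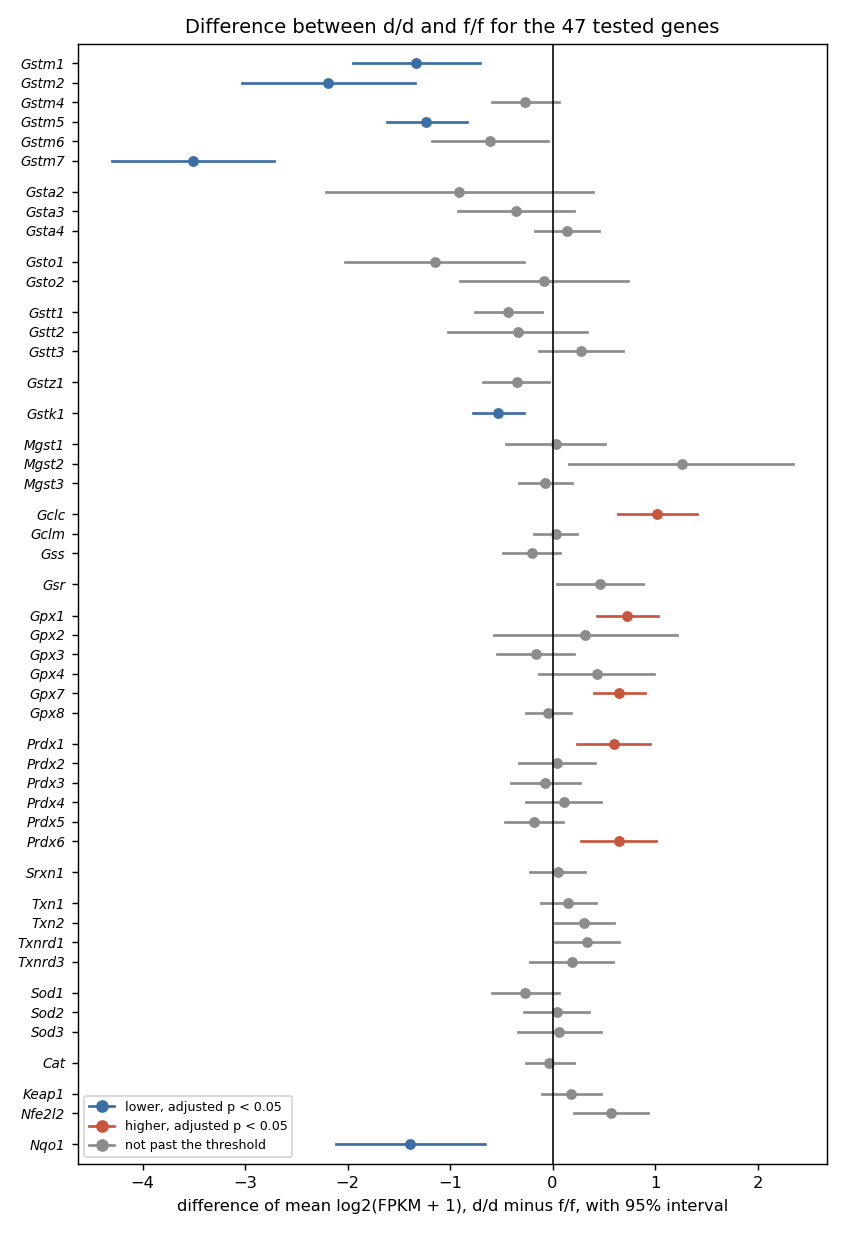
The horizontal axis is the d/d mean less the f/f mean of log2(FPKM + 1), with its 95% interval from limma (n = 3 libraries a group), for each of the 47 tested genes, grouped by family. Blue marks the 6 genes called lower and red the 5 called higher at an adjusted p under 0.05; the blue points cluster among the mu-class genes at the top, and Gstm7 lies farthest from 0, at -3.51.

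Of the remaining 10 genes, 8 were listed at 0 in all 6 libraries: Gsta1, Gstp1, Gstp2, Gstp3, Gpx5, Gpx6, Prdx6b and Txnrd2. A listed 0 can be a failed estimate in these tables and is not evidence of absence. Of these, Gstp1, Gstp2 and Gsta1 have close copies: 33.7% of the distinct 50-base stretches of Gstp1 transcripts and 54.3% of those of Gstp2 occur in transcripts of another gene, mainly each other, and so do 90.5% of those of Gsta1. The share was 0% for Gstp3 and 2.72% for Txnrd2, the mitochondrial thioredoxin reductase. The other 2 genes, Gstm3 (0 to 0.107 FPKM) and Gstt4 (0.0834 to 0.443 FPKM), were above 0 in some or all libraries but under the mean of 1 FPKM.

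The 7 mu-class genes, Gstm1 to Gstm7, encode cytosolic transferases and lie within 149074 bases of chromosome 3 (GRCm38, 107895821 to 108044894). In order from lower coordinates they are Gstm5, Gstm7, Gstm6, Gstm3, Gstm2, Gstm1 and Gstm4, with Gstm5 on the plus strand and the others on the minus strand. Since near-identical copies can share reads, their sequences bear on how far each value is its own. Their coding sequences are 654 bases long, except for Gstm5 with 672. Gstm1 is 85.9% identical to Gstm2 and 89.4% to Gstm3, whereas Gstm5 is 68.0% to 71.1% identical to the other 6. The stretch where the 6 genes of equal length differ least, bases 193 to 252 of the coding sequence counted from the start codon (GENCODE M21), is identical in Gstm1 and Gstm2. A read lying wholly within it could not separate these genes. Capitals mark bases that differ from Gstm1.
Gstm1: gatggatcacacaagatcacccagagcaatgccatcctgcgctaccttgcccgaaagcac
Gstm2: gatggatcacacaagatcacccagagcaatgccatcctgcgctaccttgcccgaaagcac
Gstm3: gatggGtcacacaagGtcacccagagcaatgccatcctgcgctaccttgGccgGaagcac
Gstm4: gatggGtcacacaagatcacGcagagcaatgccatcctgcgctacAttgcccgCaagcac
Gstm6: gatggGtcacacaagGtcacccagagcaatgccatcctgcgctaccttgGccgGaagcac
Gstm7: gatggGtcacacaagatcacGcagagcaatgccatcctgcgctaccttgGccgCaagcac
Gstm2 has 0 differences from Gstm1 there and each of the other 4 has 4. The stretch where they differ most, bases 595 to 654, which ends at the last codon before the stop, shows where reads do separate them.
Gstm1: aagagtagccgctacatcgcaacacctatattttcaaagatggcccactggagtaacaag
Gstm2: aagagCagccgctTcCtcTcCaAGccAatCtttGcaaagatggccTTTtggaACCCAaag
Gstm3: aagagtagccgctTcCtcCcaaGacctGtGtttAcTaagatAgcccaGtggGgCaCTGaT
Gstm4: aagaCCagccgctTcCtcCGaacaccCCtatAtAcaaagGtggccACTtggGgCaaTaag
Gstm6: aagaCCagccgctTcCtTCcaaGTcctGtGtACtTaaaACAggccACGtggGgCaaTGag
Gstm7: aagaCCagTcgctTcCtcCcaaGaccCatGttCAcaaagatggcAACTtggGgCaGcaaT
The differences from Gstm1 number 16 in Gstm3, 17 in Gstm4, 18 in Gstm2, 19 in Gstm7 and 23 in Gstm6. Over whole transcripts, 18.9% of the 50-base stretches of Gstm1 occur in another gene, 5.65% of those of Gstm2, 0.53% of those of Gstm7, 9.44% of those of Gstm5 (all in the antisense gene 4933431E20Rik) and 0% of those of Gstm4. Only 0.65% of the Gstm2 stretches occur in Gstm1, and those of Gstm1 are shared mostly with Gstm2-ps1 (14.1%) and Gstm3 (8.16%).

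The mu class held the steepest falls. Gstm7 measured 89.0, 197 and 178 FPKM in f/f replicates 1, 2 and 3, in that order throughout, and 12.9, 8.66 and 15.1 FPKM in d/d. Each f/f library lay far above each d/d library, and f/f replicate 1 was the lowest of its group. The means were 155 ± 57.8 and 12.2 ± 3.28 FPKM (SD, n = 3 each), a 12.7-fold lower level in d/d (log2 change -3.51, SE 0.33, limma adjusted p = 0.00428). Gstm2 was at 233, 616 and 456 FPKM in f/f and at 69.1, 92.7 and 105 FPKM in d/d. Its groups were also well apart, again with f/f replicate 1 the lowest of its group. The mean went from 435 ± 192 to 89.0 ± 18.3 FPKM (SD, n = 3 each), 4.89-fold lower (log2 change -2.19, SE 0.36, limma adjusted p = 0.0150).

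Gstm1 was the most abundant of the 57 genes in f/f, at 895, 1499 and 806 FPKM, and was at 338, 443 and 453 FPKM in d/d. The f/f libraries varied widely, with replicate 2 standing above the others, but none came down to the d/d level. Its mean fell 2.59-fold, from 1067 ± 377 to 411 ± 63.4 FPKM (SD, n = 3 each), at a log2 change of -1.33 (SE 0.26, limma adjusted p = 0.0258). Gstm5, the most divergent of the 7 in sequence, was nearly constant in f/f, at 85.1, 82.5 and 83.9 FPKM, and was at 31.1, 30.4 and 46.2 FPKM in d/d. All d/d libraries were lower, d/d replicate 3 the least so. The fall was 2.33-fold (83.9 ± 1.29 to 35.9 ± 8.92 FPKM, SD, n = 3 each), at a log2 change of -1.23 (SE 0.17, limma adjusted p = 0.0105).

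The falls did not pass the threshold in the other tested mu-class genes. Gstm4, at the far end of the cluster, was at 9.14, 9.73 and 11.9 FPKM in f/f against 7.89, 7.95 and 9.13 FPKM in d/d (log2 change -0.27, SE 0.14, limma adjusted p = 0.249). The groups just failed to touch, at 9.139 in the lowest f/f library against 9.134 in the highest d/d library. Gstm6 was at 2.48, 1.31 and 1.81 FPKM in f/f against 0.654, 0.865 and 1.07 FPKM in d/d (log2 change -0.61, SE 0.24, limma adjusted p = 0.151). The d/d mean of Gstm6 was under 1 FPKM, so it was tested through its f/f level. Groups did not overlap and d/d was lower in each of the 6 tested mu-class genes, Gstm6 included, and their median log2 change was -1.28. Without f/f replicate 2 the call was lost for Gstm5 (limma adjusted p = 0.0507), Gstm2 (0.0544) and Gstm1 (0.0561). That of Gstm2 was lost also when f/f replicate 3 was omitted, or d/d replicate 2 (adjusted p up to 0.0590) and that of Gstm1 without any one d/d replicate (adjusted p up to 0.0762), whereas Gstm7 was called without each of the 6 libraries in turn (adjusted p up to 0.0288).

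**Figure D2:**
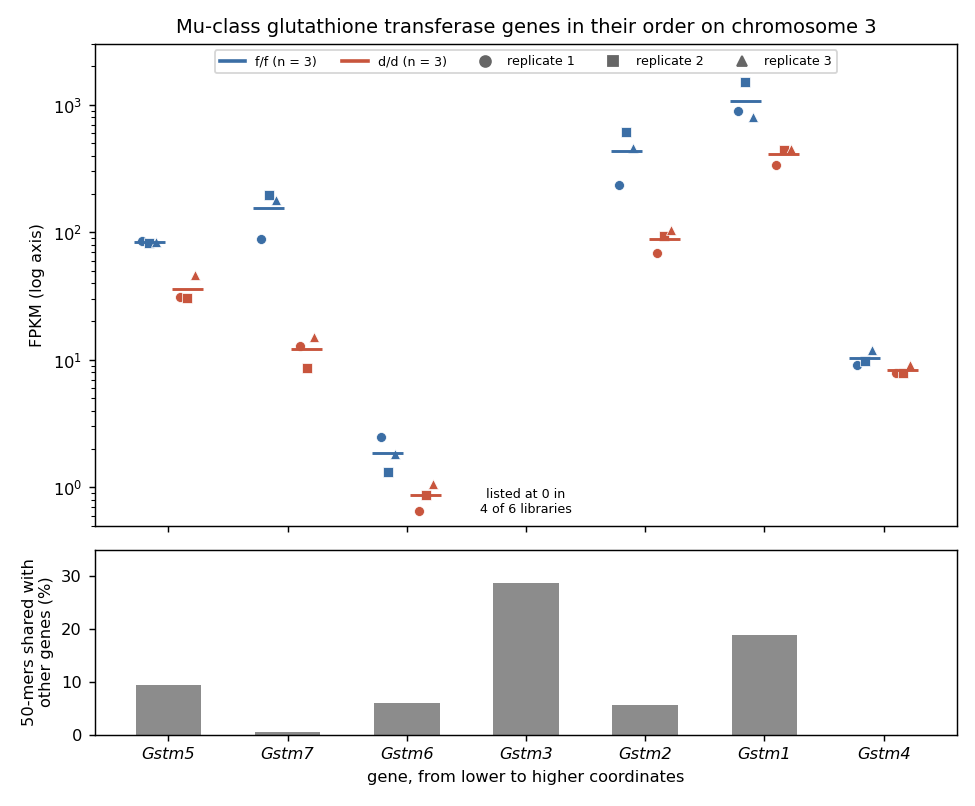
The upper panel gives the FPKM of each library (log axis; blue f/f, red d/d, marker shape for the replicate number, horizontal line for the group mean) for the mu-class genes in their order along chromosome 3, and the lower panel the percentage of each gene's distinct 50-base transcript stretches that occur in another gene. In each of the 6 genes shown the f/f points lie above the d/d points, with the widest gap in Gstm7, which shares 0.53%, and the narrowest in Gstm4, which shares 0%.

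Because reads can pass between copies, the summed level of the class was compared as well. It was 1313, 2406 and 1538 FPKM in f/f against 460.1, 583 and 629.8 FPKM in d/d, a 3.14-fold lower mean (1752 ± 577 against 558 ± 87.7 FPKM, SD, n = 3 each), and it was 3.19-fold lower with the pseudogene row Gstm2-ps1 added. That pseudogene, which holds 14.1% of the 50-base stretches of Gstm1, was itself at 136, 227 and 269.6 FPKM in f/f against 61.6, 55.7 and 57.3 FPKM in d/d (limma adjusted p = 0.0105). Within the sum, Gstm1 made up 60.9% on average in f/f and 73.8% in d/d, Gstm2 24.3% and 15.9%, and Gstm7 8.85% and 2.23%. Among the 57 genes ordered by mean level, Gstm7 went from rank 9 in f/f to rank 36 in d/d, Gstm2 from 3 to 14, Gstm5 from 15 to 25 and Gstm1 from 1 to 2. Gpx1 went from rank 4 to rank 1.

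Genes next to the cluster were called in either direction. Of the 2 nearest tested protein-coding genes at lower coordinates and the 3 nearest at higher coordinates, Csf1 at the lower coordinates, encoding the macrophage growth factor, rose 2.10-fold (limma adjusted p = 0.0161), and Ampd2 at the higher coordinates, encoding an AMP deaminase, fell 1.34-fold (limma adjusted p = 0.0405). The other 3 were lower in d/d without passing: the log2 change was -0.46 for Ahcyl1 (limma adjusted p = 0.0641), -0.24 for Gnat2 (0.652) and -0.16 for Gnai3 (0.348).

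Among the other transferases, Gstk1, the kappa-class enzyme of mitochondria and peroxisomes (chromosome 6, 42245935 to 42250447), fell by a smaller margin. It was at 18.2, 20.5 and 21.5 FPKM in f/f against 13.6, 13.8 and 13.2 FPKM in d/d. The d/d libraries lay close together below all f/f libraries. The fall was 1.48-fold (20.1 ± 1.67 to 13.6 ± 0.302 FPKM, SD, n = 3 each), at a log2 change of -0.53 (SE 0.10, limma adjusted p = 0.0263). The call held without f/f replicate 1 and was lost without any of the other 5 libraries (adjusted p up to 0.110, log2 change -0.59 to -0.48).

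Gsto1, an omega-class enzyme with thioltransferase and dehydroascorbate reductase activity, was the second most abundant of the 57 genes in f/f. It was at 468, 1163 and 969 FPKM in f/f and at 319.6, 299.97 and 497 FPKM in d/d, so that f/f replicate 1 lay below d/d replicate 3. The 2.33-fold lower mean in d/d did not pass (log2 change -1.15, SE 0.37, limma adjusted p = 0.0930). Without f/f replicate 1 it did, at a log2 change of -1.55 (adjusted p = 0.0183). It did not pass when any other single library was left out (log2 change -1.38 to -0.89, limma adjusted p 0.116 to 0.240). Gsto1 and its neighbour Gsto2 (1.40 and 1.31 FPKM on average in f/f and d/d) both overlap Cfap43 on the opposite strand. Gstm2, Gstm7 and Gsto1 were each lowest in f/f replicate 1 among the f/f libraries, the library that was also lowest in f/f for the smooth muscle sum and Hoxa10. With the Hoxa10 level added to the model, a setting chosen after earlier results of these data were known, the log2 change was -3.27 for Gstm7 (limma adjusted p = 0.0071), -1.86 for Gstm2 (0.0071), -1.22 for Gstm1 (0.0488), -1.19 for Gstm5 (0.0226) and -0.84 for Gsto1 (0.0633). Hoxa10 was lower in all d/d libraries than in f/f replicates 2 and 3, so this setting does not fully separate it from the group. The part of smooth muscle and mesothelial cells in the transferase levels was not tested.

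The alpha, theta, zeta and microsomal transferases did not pass the threshold in either direction; at an unadjusted limma p under 0.05, Mgst2 was higher and Gstt1 and Gstz1 were lower. Of the alpha class, which includes enzymes for lipid peroxidation products, Gsta4 was at 98.1 ± 9.28 FPKM in f/f and 108 ± 13.7 FPKM in d/d, Gsta3 at 27.5 ± 8.13 and 20.9 ± 3.87 FPKM, and Gsta2 at 2.47 ± 2.08 and 0.757 ± 0.897 FPKM (SD, n = 3 each). Gsta2 and Gsta3 were highest in f/f replicate 3 (4.70 and 35.6 FPKM), the library with the highest ovarian steroidogenic sum, whose part in these levels was not tested. The d/d mean of Gsta2 was under 1 FPKM, so it was tested through its f/f level. The alpha-class sum was 128 and 129.9 FPKM on average. In the theta class, known for small halogenated compounds, Gstt1 had non-overlapping groups, at 43.7 ± 4.28 and 32.3 ± 4.64 FPKM (SD, n = 3 each; limma adjusted p = 0.0927), while Gstt2 (58.3 and 47.5 FPKM) and Gstt3 (16.3 and 19.98 FPKM) overlapped. Gstz1, the maleylacetoacetate isomerase of tyrosine breakdown, was at 33.5 ± 4.76 and 25.9 ± 2.52 FPKM (SD, n = 3 each; limma adjusted p = 0.145). Mgst1, the abundant membrane-bound transferase of the endoplasmic reticulum and mitochondria, was at 275 ± 49.5 and 282 ± 59.0 FPKM (SD, n = 3 each) and Mgst3 at 18.8 and 17.8 FPKM. Mgst2, which can also make leukotriene C4, was low, at 0.248, 0.264 and 0.747 FPKM in f/f against 1.37, 1.30 and 5.90 FPKM in d/d. Its groups did not overlap, with d/d replicate 3 far above the rest (log2 change 1.26, SE 0.46, limma adjusted p = 0.129). The f/f mean of Mgst2 was under 1 FPKM, so it was tested through its d/d level.

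**Figure D3:**
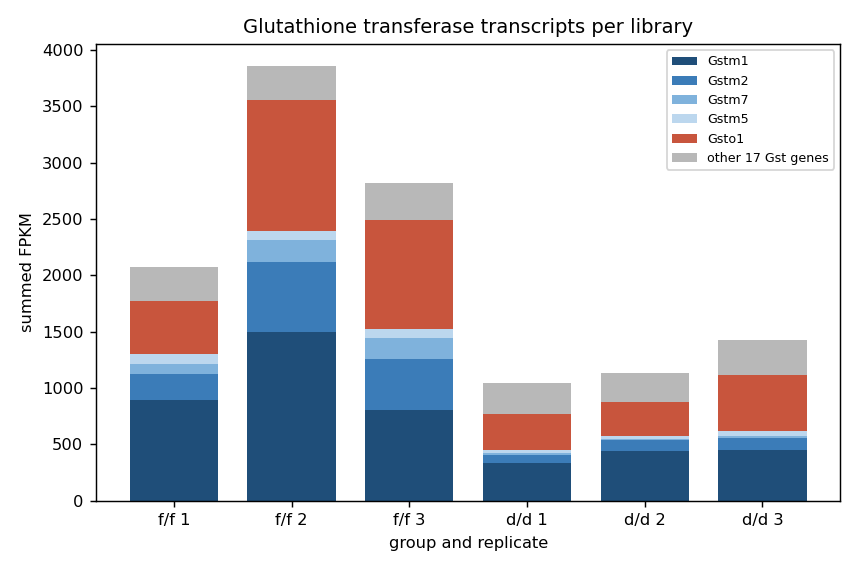
Each bar is the summed FPKM of the 22 Gst genes in 1 library, stacked by gene: 4 mu-class genes in blues, Gsto1 in red and the other 17 in grey. Of these 17, Gsta1, Gstp1, Gstp2 and Gstp3 were listed at 0 in every library. The 3 d/d bars are all shorter than the 3 f/f bars, f/f replicate 1 is the shortest of its group, and the blue segments together shrink most from f/f to d/d.

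The transferase sum over all 22 Gst genes was 2921 ± 895 FPKM in f/f and 1201 ± 200.1 FPKM in d/d (SD, n = 3 each), 2.43-fold lower without overlap. Gsta1, Gstp1, Gstp2 and Gstp3 were listed at 0 in all 6 libraries and add nothing to it. As a listed 0 can be a failed estimate, the sum may miss their transcripts. With the 3 most abundant genes of f/f left out (Gstm1, Gsto1 and Gstm2), the sum was 552 ± 60.7 and 328 ± 39.3 FPKM (SD, n = 3 each), 1.68-fold lower and again without overlap. With Gsto1 and all 7 mu-class genes left out, the other 14 genes summed to 301 ± 13.4 and 271 ± 26.9 FPKM (SD, n = 3 each), a 1.11-fold difference with overlap between the groups, so most of the lower sum lay in the mu class and Gsto1.

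Of the genes for glutathione synthesis, 1 passed the test at the RNA level. Gclc, the catalytic subunit of the rate-limiting ligase (chromosome 9, 77754535 to 77794485), was at 47.2, 39.6 and 39.6 FPKM in f/f and at 70.2, 88.5 and 103.7 FPKM in d/d. Every d/d library lay above every f/f library. The rise was 2.08-fold (42.1 ± 4.35 to 87.5 ± 16.8 FPKM, SD, n = 3 each), at a log2 change of 1.02 (SE 0.16, limma adjusted p = 0.0141). Gclm, its modifier subunit, was level across all 6 libraries, at 38.1, 42.1 and 40.8 FPKM in f/f against 41.8, 41.8 and 40.2 FPKM in d/d (log2 change 0.03, 95% interval -0.18 to 0.24). The ligase subunits therefore stood at similar FPKM in f/f (42.1 and 40.3), whereas in d/d Gclc was at 87.5 and Gclm at 41.3 FPKM. Gss was at 11.9, 9.90 and 10.5 FPKM in f/f against 8.98, 9.04 and 9.66 FPKM in d/d, slightly lower without overlap (log2 change -0.20, limma adjusted p = 0.295). Gsr, the reductase, was at 27.0, 20.7 and 19.8 FPKM in f/f against 27.3, 38.3 and 28.5 FPKM in d/d. Its groups nearly met, and the difference did not pass (log2 change 0.46, SE 0.18, limma adjusted p = 0.141). The Gclc call was lost when f/f replicate 2 or 3 was omitted, or d/d replicate 2 (adjusted p up to 0.0632), with a log2 change of 0.89 to 1.17 over the 6 libraries left out in turn.

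**Figure D4:**
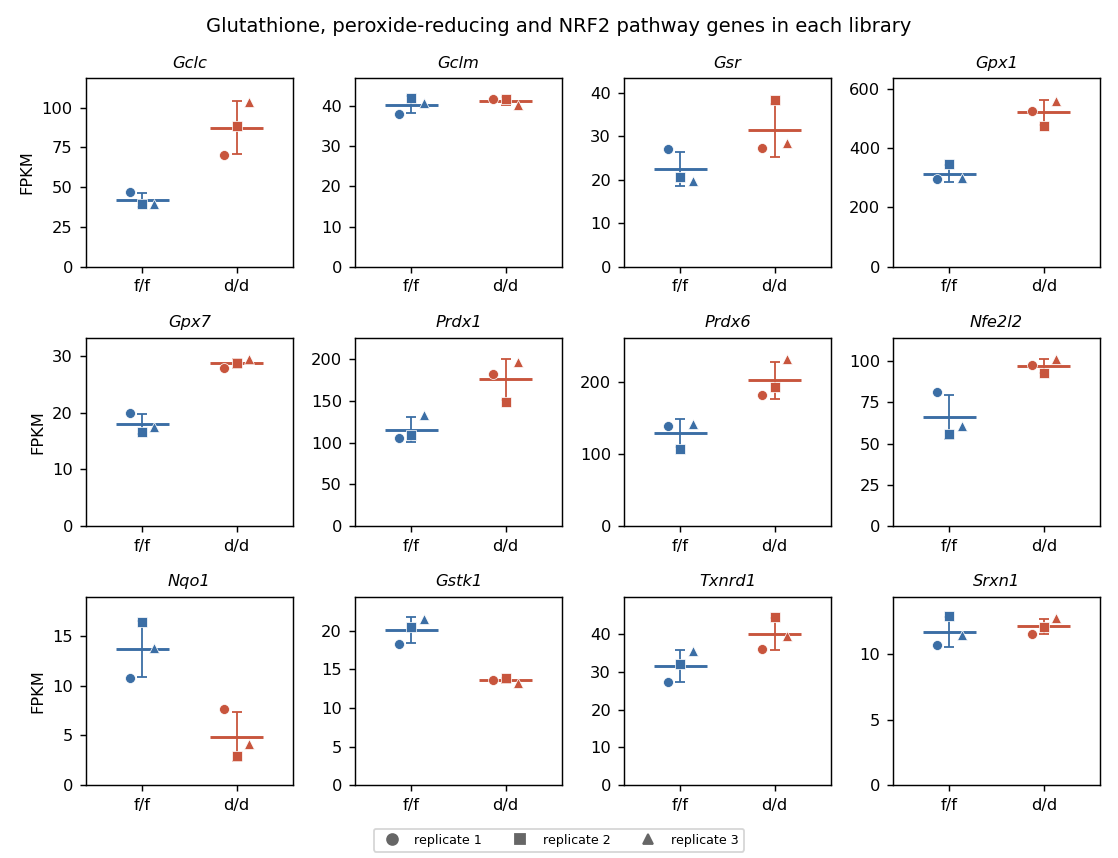
Each panel gives the FPKM of 1 gene in the 3 f/f libraries (blue) and the 3 d/d libraries (red), with the group mean as a horizontal line, the SD as an error bar and the marker shape for the replicate number; axes start at 0. Gclc, Gpx1, Gpx7, Prdx1 and Prdx6 are higher in every d/d library, Nqo1 and Gstk1 are lower in every d/d library, and Gclm and Srxn1 overlap between the groups.

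Gpx1 and Gpx7 rose among the glutathione peroxidases. Gpx1, the main cytosolic and mitochondrial selenoenzyme for hydrogen peroxide (chromosome 9, 108338903 to 108340343), was at 297, 345 and 299 FPKM in f/f against 525, 474 and 559.8 FPKM in d/d. The groups were separated by a wide margin. The mean rose 1.66-fold (314 ± 27.4 to 519.7 ± 43.2 FPKM, SD, n = 3 each), at a log2 change of 0.73 (SE 0.13, limma adjusted p = 0.0184). Gpx7, a peroxidase of the endoplasmic reticulum that lacks selenocysteine (chromosome 4, 108400390 to 108406961), was at 19.95, 16.6 and 17.6 FPKM in f/f against 27.9, 28.8 and 29.6 FPKM in d/d. Its SE was the smallest among the 5 genes that rose, with the d/d libraries close to each other (1.59-fold in means; log2 change 0.65, SE 0.10, limma adjusted p = 0.0148). The call of Gpx1 was lost when f/f replicate 2 or 3 was omitted, or d/d replicate 1 or 3 (adjusted p up to 0.0722) and that of Gpx7 when f/f replicate 2 or 3 was omitted, or d/d replicate 2 or 3 (adjusted p up to 0.0696).

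Gpx3, the secreted plasma-type peroxidase, was at 244, 222 and 253 FPKM in f/f against 260.2, 177 and 211 FPKM in d/d and overlapped (log2 change -0.16, limma adjusted p = 0.525). Gpx8, the membrane-bound relative of Gpx7, was at 71.0 ± 5.06 and 69.0 ± 0.809 FPKM (SD, n = 3 each; limma adjusted p = 0.827). Gpx2, the peroxidase of gastrointestinal epithelium, was at 6.62 ± 0.573 and 9.61 ± 6.41 FPKM (SD, n = 3 each), the second mean resting on 16.99 FPKM in d/d replicate 2. Gpx4, the enzyme for phospholipid hydroperoxides, was listed at 8.19, 7.48 and 8.81 FPKM in f/f against 9.07, 9.39 and 16.9 FPKM in d/d (limma adjusted p = 0.269). This level is uncertain, since the row of its processed pseudogene Gpx4-ps2 stood at 299.9, 317 and 237 FPKM in f/f against 389, 366 and 431 FPKM in d/d, and 34.7% of the 50-base stretches of Gpx4 transcripts occur in Gpx4-ps2. The sum of both rows was 293 ± 41.4 FPKM in f/f and 407 ± 37.0 FPKM in d/d (SD, n = 3 each), 1.39-fold higher without overlap. The Gpx sum was 657 ± 14.5 and 855 ± 68.3 FPKM (SD, n = 3 each), and 942 ± 51.0 and 1250.3 ± 95.6 FPKM with Gpx4-ps2.

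Prdx6 and Prdx1 rose among the peroxiredoxins, both close to the threshold. Prdx6, the 1-cysteine peroxiredoxin that also has phospholipase activity (chromosome 1, 161240112 to 161251219), was at 139, 107 and 142 FPKM in f/f against 182, 193 and 232 FPKM in d/d. All d/d libraries were above all f/f libraries (1.56-fold; log2 change 0.65, SE 0.15, limma adjusted p = 0.0448). Prdx1, a cytosolic enzyme of the typical 2-cysteine type (chromosome 4, 116685544 to 116700822), was at 105, 109 and 133 FPKM in f/f against 182, 148 and 197 FPKM in d/d, also without overlap (1.52-fold; log2 change 0.60, SE 0.15, limma adjusted p = 0.0488). Neither was called when any 1 of the 6 libraries was left out (adjusted p 0.0534 to 0.131 for Prdx6 and 0.0553 to 0.155 for Prdx1). Of the 50-base stretches of Prdx1 transcripts, 8.81% occur in other features, most of them in Gm21399 and Gm7204. The remaining 4 tested peroxiredoxins overlapped between the groups. They were cytosolic Prdx2 (167 and 173 FPKM), mitochondrial Prdx3 (66.9 and 64.3 FPKM), Prdx4 of the secretory pathway (75.5 and 81.0 FPKM) and Prdx5 of mitochondria and peroxisomes (103 and 90.5 FPKM). The peroxiredoxin sum was 657 ± 59.1 and 787 ± 101 FPKM (SD, n = 3 each), with overlap between the groups. Macrophage and myeloid marker levels rose with these same libraries, as given above, and their part in the higher Gpx1, Gpx7, Prdx1, Prdx6 and Gclc levels was not tested.

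No gene of the thioredoxin system passed the test, and at an unadjusted limma p under 0.05 Txn2 and Txnrd1 were higher in d/d. Cytosolic Txn1 was at 106, 112 and 123 FPKM in f/f against 138, 117 and 124 FPKM in d/d, with overlap (log2 change 0.15, limma adjusted p = 0.392). Mitochondrial Txn2 was at 70.5 ± 7.81 and 87.4 ± 7.61 FPKM (SD, n = 3 each) without overlap (limma adjusted p = 0.148). Txnrd1, the cytosolic selenoenzyme that reduces Txn1, was at 27.2, 32.0 and 35.4 FPKM in f/f against 36.1, 44.5 and 39.5 FPKM in d/d (log2 change 0.34, SE 0.13, limma adjusted p = 0.151). The lowest d/d library lay just above the highest f/f library. Txnrd3, a reductase with a glutaredoxin domain known best from testis, was at 5.44 ± 1.25 and 6.25 ± 0.448 FPKM (SD, n = 3 each). Srxn1, the sulfiredoxin that repairs overoxidized peroxiredoxins, was at 10.7, 13.0 and 11.5 FPKM in f/f against 11.6, 12.1 and 12.7 FPKM in d/d (log2 change 0.05, 95% interval -0.22 to 0.32).

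Superoxide dismutases and catalase did not pass either, and of these 4 genes 0 had an unadjusted limma p under 0.05. Sod1, the cytosolic copper-zinc enzyme and the most abundant of these, was at 249, 209 and 248 FPKM in f/f against 197, 171 and 219.95 FPKM in d/d, with f/f replicate 2 below d/d replicate 3 (log2 change -0.27, limma adjusted p = 0.246). Sod2, the mitochondrial manganese enzyme, was at 63.1, 47.6 and 47.8 FPKM in f/f against 54.1, 56.4 and 50.8 FPKM in d/d. Secreted Sod3 was at 17.1, 11.9 and 11.1 FPKM in f/f against 14.1, 13.8 and 13.4 FPKM in d/d. In both genes f/f replicate 1 was the highest library, and the d/d libraries lay between it and the other f/f libraries. Cat, the peroxisomal catalase, was at 45.9, 47.7 and 40.2 FPKM in f/f against 43.2, 43.9 and 43.8 FPKM in d/d (log2 change -0.03, 95% interval -0.26 to 0.21).

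The regulator NRF2 and its best-known target genes did not share one direction. Nfe2l2 was at 81.2, 56.1 and 60.5 FPKM in f/f against 97.5, 92.7 and 101 FPKM in d/d. Every d/d library was higher, f/f replicate 1 being the nearest to them. The 1.47-fold higher mean did not pass (log2 change 0.57, SE 0.15, limma adjusted p = 0.0575), and it passed at 0.73 when f/f replicate 1 was left out (limma adjusted p = 0.0123). It did not pass when any other single library was left out (limma adjusted p 0.118 to 0.171). Keap1, its repressor, was at 23.0, 23.6 and 28.1 FPKM in f/f against 30.4, 28.9 and 25.8 FPKM in d/d, with overlap (log2 change 0.18, limma adjusted p = 0.353). Nqo1, the quinone reductase often used as a readout of NRF2 activity (chromosome 8, 107388225 to 107403206), was at 10.7, 16.4 and 13.8 FPKM in f/f against 7.60, 2.88 and 4.08 FPKM in d/d. All d/d libraries were lower, and d/d replicate 1 came nearest to f/f. The fall was 2.81-fold (13.6 ± 2.83 to 4.85 ± 2.45 FPKM, SD, n = 3 each), at a log2 change of -1.39 (SE 0.31, limma adjusted p = 0.0362). The Nqo1 call was lost when f/f replicate 2 or 3 was omitted, or d/d replicate 2 or 3 (adjusted p up to 0.126).

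NRF2 binds with small MAF proteins at antioxidant response elements, whose core is TGACNNNGC. The core was searched on both strands in RefSeq promoters (GRCm38.p6, windows of 300 bases around the start), of which 50 of the 57 genes had an entry. It was present in 10 of them: Gclm, Gsta3, Gstm5, Gstm7, Mgst1, Nfe2l2, Prdx1, Sod1, Srxn1 and Txnrd1. Over all 27025 genes with an entry, 14.0% held it. The stretches around the core are shown for genes that fell, rose and kept their level in d/d, because the same core stood beside each outcome. Capitals mark the core, read on the gene's strand in Gstm7, Gstm5 and Nfe2l2 and on the opposite strand in Prdx1 and Gclm, and each sequence is written on the gene's strand.
Gstm7 (fell), chr3:107931710-107931769, minus strand: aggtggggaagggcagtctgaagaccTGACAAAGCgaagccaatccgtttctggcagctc
Gstm5 (fell), chr3:107895786-107895845, plus strand: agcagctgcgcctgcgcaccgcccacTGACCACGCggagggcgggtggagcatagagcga
Prdx1 (rose), chr4:116685440-116685499, plus strand: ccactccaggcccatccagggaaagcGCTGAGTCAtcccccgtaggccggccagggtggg
Nfe2l2 (higher, not past the threshold), chr2:75704870-75704913, minus strand: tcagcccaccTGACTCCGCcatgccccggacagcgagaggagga
Gclm (level), chr3:122245397-122245456, plus strand: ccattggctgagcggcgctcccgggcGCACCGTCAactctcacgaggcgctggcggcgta
The core began 129 bases before a RefSeq start in Gstm7, 42 in Gstm5, 133 in Prdx1, 240 in Nfe2l2 and 134 in Gclm. Gstm7 has a further RefSeq start, whose window (chr3:107931768-107932067) did not hold the core. By the GENCODE limits of Gstm7 (107926334 to 107931817) the stretch shown lies within the gene, so its place before the start depends on which start is used. It was not in these windows of Gstm1, Gstm2, Gstk1, Gpx1, Gpx7 or Nqo1, and Gclc and Prdx6 had no entry. The AP-1 site TGANTCA, which overlaps the element's core in Prdx1, was in 6 of the 50 promoters against 9.0% of all genes, and TATAAA in 10 of the 50 against 15.7%. A match in such a window is a description of its letters and does not show binding.

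Other genes of the same pathways were read from the same fit. Among 10 regulators of NRF2 and related factors, 0 rose and 0 fell at a limma adjusted p under 0.05, and the 2 most abundant were Sqstm1, the autophagy receptor that binds KEAP1 (234 and 222 FPKM), and the NRF2 relative Nfe2l1 (87.1 and 82.0 FPKM). At an unadjusted limma p under 0.05, 1 was higher (Nfe2l3) and 2 were lower (Btrc and Mafk). Of 21 tested further NRF2 targets, 3 rose and 0 fell, with a median log2 change of 0.26 (7 and 2 at an unadjusted limma p under 0.05). Over all features tested, 6.04% rose and 4.97% fell, and 15.4% and 14.2% had an unadjusted p under 0.05 in those directions, so with so few genes a list's count is a description only. The genes that rose were the ferritin light chain Ftl1 (281 ± 33.3 to 518 ± 44.4 FPKM), the carbonyl reductase Cbr3 (14.1 ± 1.76 to 25.5 ± 1.93 FPKM) and Pgd, an NADPH-producing enzyme of the pentose phosphate pathway (42.4 ± 5.73 to 63.8 ± 6.71 FPKM; SD, n = 3 each). The cystine carrier Slc7a11 and the heme oxygenase gene Hmox1 were named after their values were seen, and neither passed. Slc7a11 was at 8.11 ± 3.53 and 3.83 ± 0.700 FPKM (SD, n = 3 each, limma adjusted p = 0.0945), lower in d/d without overlap. Hmox1 was at 9.85 ± 1.96 and 14.0 ± 3.00 FPKM (SD, n = 3 each, limma adjusted p = 0.179), higher in d/d without overlap.

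A list of 21 genes of glutathione breakdown and glutaredoxins also held Glo1, Hagh, Esd, Gstcd, Lancl1 and Slc3a2. In it Anpep, an aminopeptidase, rose 11.04-fold. The dipeptidase Dpep1 fell 2.68-fold (8.10 ± 2.53 to 3.02 ± 0.763 FPKM) and Ggt7, of the gamma-glutamyltransferase family, 2.36-fold. The mitochondrial glutaredoxin Glrx2 fell 1.44-fold (33.2 ± 1.66 to 23.2 ± 2.59 FPKM, SD, n = 3 each). In that list 6 genes were higher and 6 lower at an unadjusted limma p under 0.05. Among the higher ones, Dpep2 had an f/f mean under 1 FPKM and was tested through its d/d level. Of 13 partners of thioredoxin and peroxiredoxin, Sesn1, a stress-induced regulator of growth signalling, fell 1.68-fold (limma adjusted p = 0.0448) and 0 rose, with 1 higher (Txndc5) and 2 lower (Sesn1 and Txnip) at an unadjusted p under 0.05. In the 12 genes of selenoprotein synthesis and abundant selenoproteins, Sephs2, which makes the selenium donor, rose 1.67-fold (limma adjusted p = 0.0138; 13.9 ± 1.26 to 23.2 ± 1.17 FPKM, SD, n = 3 each) and 0 fell, with 2 higher (Sephs2 and Eefsec) and 1 lower (Secisbp2l) at an unadjusted p under 0.05. Gpx1 and Txnrd1 are themselves selenoproteins.

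Of the enzymes that produce superoxide or hydrogen peroxide, 4 of 7 tested genes were called higher and 0 lower, with a median log2 change of 1.09 (5 and 0 at an unadjusted limma p under 0.05). Nox4 was under 1 FPKM in f/f and was tested through its d/d level. The called genes were Nox4, an oxidase that is active without cytosolic partners (0.896 ± 0.0582 to 4.29 ± 0.359 FPKM, 4.79-fold, limma adjusted p = 0.00763), and the phagocyte oxidase genes Cybb (2.73-fold), Ncf4 (2.90-fold) and Cyba (1.87-fold; SD, n = 3 each). The phagocyte oxidase subunits are known from the myeloid cells whose markers were higher in the same libraries, and the part of those cells in their levels was not tested. Over all 6 lists (10, 21, 21, 13, 12 and 7 tested genes) 13 genes were called, where 11.0% of all features tested were called. The number became 4 when f/f replicate 2 was left out and 5 for f/f replicate 3. It was 6 each for d/d replicates 2 and 3, and 8 for d/d replicate 1. Over all features the calls went from 1701 to 308, 525, 635, 652 and 885 in the same order.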

How the data were processed

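RNA of whole oviducts on gestational day 3 was measured in 6 libraries, 3 f/f and 3 d/d, made with TRIzol and a TruSeq RNA kit according to the labels. The authors' deposited tables hold 1 value per Ensembl gene, read here as FPKM. This unit is an inference: HISAT2 2.2.1, Cufflinks 2.2.1 and the builds mm9 and mm10 (with no role given) are listed per the submitters' processing notes, while the values are decimals with differing library totals. Annotation and strandedness were not given in the sources used here. Reads of overlapping, antisense or near-identical genes therefore cannot be told apart.

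The genes and lists described here were chosen with earlier results of these data known. Rows sharing a symbol (114 symbols) were summed. Of the 55483 features, 99.4% of the identifiers were in GENCODE M21 (GRCm38), used for coordinates and transcripts; the sequences printed with coordinates come from RefSeq. Those averaging 1 FPKM or more were tested with limma 3.58.1 (R 4.3.3) as log2(FPKM + 1) (eBayes with a variance trend, genotype as the only term, two-sided, Benjamini-Hochberg over all 15438 features, threshold 0.05). This scale understates changes of low genes. Fits that leave out a library apply the filter to the libraries used. Fragments per library were inferred from the lowest FPKM step of long single-transcript genes. No other values were turned back into counts, and no count model was used. The fit was tested on simulated data.

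Genes named with values were all members, and in each list up to 4 called genes with the largest change or, where 0 were called, the 2 most abundant. The genes beside the mu-class cluster, Slc7a11, Hmox1, Txndc5, Txnip, Eefsec, Secisbp2l, Nfe2l3, Btrc, Mafk, Dpep2, Glo1, Hagh, Esd, Gstcd, Lancl1, Slc3a2, Hoxa10 and the pseudogenes were named outside this rule. Replicate numbers did not pair the libraries (closing section). Alternatives were quantile normalization, TMM scaling (trimmed mean of M values), no filter, a pseudocount of 0.1, scaling to protein-coding nuclear genes, a replicate block, libraries left out, and Hoxa10 as a covariate, the last added after earlier results were seen. With 3 libraries a group, precision rests on the spread between few samples.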

Additional observations from a re-analysis of the deposited data

How the results depend on the processing

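With a pseudocount of 0.1, TMM scaling or scaling to protein-coding nuclear genes the same 5 higher and 6 lower genes were called, and with quantile normalization Gsto1 was added to the lower ones. Without a filter 1107 features were called, with 3 of the genes described higher (Gclc, Gpx1, Gpx7) and 4 lower (Gstk1, Gstm2, Gstm5, Gstm7), and 6 genes of the pathway lists. Leaving out 1 library gave 308 to 1795 features against 1701, 0 to 4 genes higher, 1 to 7 lower and 4 to 12 in the pathway lists. The lowest of each came without f/f replicate 2, although 0 genes were higher without f/f replicate 3 as well. Each such fit has fewer samples. Without replicate 1 of both groups 3 genes were higher and 7 lower: Gpx1, Prdx1, Prdx6 and Gstm1 lost their calls, and Nfe2l2, Gsta2 and Gsto1 gained one. With Hoxa10 as a covariate 3 were higher and 5 lower, Prdx1, Prdx6 and Nqo1 (adjusted p = 0.0672) having lost their calls. Gstm7 was called in all 14 alternatives and Gstm5 in 13. The mu-class sum had a log2 ratio of -1.82 to -1.35 over single libraries left out, against -1.65.

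Same-numbered libraries did not deviate together (correlations of -0.22, -0.058 and 0.003), so the numbers are not taken to pair the samples. The fit with the replicate block called 276 features, 0 of the genes described higher and 3 lower (Gstm2, Gstm5, Gstm7), and 1 gene of the pathway lists.

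Some small changes turned direction, none of them called. Without replicate 1 of both groups Gclm was at -0.02, Gsto2 at 0.39, Prdx2 at -0.03 and Prdx4 at -0.06. Mgst1 was at -0.07 with quantile normalization and -0.09 with Hoxa10 as a covariate, where Sod2 and Sod3 were at -0.06. With 1 library left out, log2 changes ranged from -0.10 to 0.02 for Cat, -0.01 to 0.06 for Gclm, -0.14 to 0.59 for Gpx2, -0.08 to 0.02 for Gpx8, -0.34 to 0.17 for Gsto2, -0.08 to 0.22 for Mgst1, -0.09 to 0.16 for Prdx2, -0.19 to 0.05 for Prdx3, -0.01 to 0.22 for Prdx4, -0.03 to 0.17 for Sod2, -0.05 to 0.24 for Sod3, -0.01 to 0.12 for Srxn1 and -0.15 to 0.02 for Sqstm1. The causes were not tested. With 3 libraries a group, a small difference that missed the threshold is not shown to be absent, and the effect of depth was not tested.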
